A study of Mus musculus with 12 samples.

Results

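Complement and coagulation proteins are blood plasma proteins that liver cells secrete. The 34 genes described here encode them and were chosen by symbol from a list of such genes made by hepatocytes, the main secretory cells of the liver. All 34 were found among the 24421 genes of the count table, and all 34 passed the filter on low counts that left 14443 genes to test. RNA came from livers of C57BL/6 mice aged 15 months. Every group lacks Atg7, a gene needed to build autophagosomes, the vesicles that carry cell contents to the lysosome. The groups were tumours and non-tumour liver of mice that also lack Hmgb1, a chromatin protein that acts as a danger signal outside the cell (double knockouts, DKO), and tumours and non-tumour liver of mice lacking Atg7 alone (Atg7KO), with 3 libraries in each of the 4 groups. No liver with intact Atg7 was analysed here. The sources used here do not give the promoter or cell type of the deletions, the sex of the mice or whether libraries came from separate animals. The p-values therefore cover the spread between the samples alone, and part of that spread may be technical.

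Coagulation is a cascade in which one protease activates the next until thrombin turns soluble fibrinogen into fibrin. It can start from tissue factor with factor VII or from the contact system of factor XII, plasma kallikrein and kininogen, and it is limited by antithrombin, the protein C pathway and the plasmin system that dissolves fibrin. Complement is a parallel cascade of plasma proteases. Lectins or antibodies activate C4 and C2, these cleave C3, the alternative pathway amplifies that step through factor B, and the terminal components assemble into a pore, the membrane attack complex. Hepatocytes make most of these proteins, and several of their genes depend on the liver transcription factors HNF1 and C/EBP.

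Library totals ran from 18292190 to 32354958 assigned reads, and the members had between 265 reads (F11) and 449400 reads (C3) in any library, so counting error is small beside the spread between libraries. Albumin (Alb), the defining hepatocyte transcript, stood between 13429 and 83530.4 CPM in every library. CPM here means counts scaled to a common library size, with TMM factors that correct for composition. Reads of both deleted genes were present: Hmgb1 averaged 79 ± 16.3 CPM in DKO tumours, 101 ± 17.4 in DKO non-tumour liver, 115 ± 20.4 in Atg7KO tumours and 118 ± 12.3 in Atg7KO non-tumour liver (SD, n = 3 each), and Atg7 had 88 to 401 reads per library. Atg7 averaged 6.96 ± 3.4 CPM in DKO tumours and 13 ± 4.13 in DKO non-tumour liver. In Atg7KO it averaged 5.56 ± 2.61 CPM in tumours and 10.1 ± 2.7 in non-tumour liver. The genotypes differed in sex chromosome transcripts: 4 Y-linked genes (Ddx3y, Eif2s3y, Kdm5d, Uty) summed to 1898 to 4639 reads in each DKO library and 0 to 2 in each Atg7KO library. Xist, expressed from the inactive X chromosome of females, had 0 to 2 reads in each DKO library and 1130 to 12216 in each Atg7KO library. DKO tumour replicate 1 stood farthest from the rest, with a mean Spearman correlation to the other libraries of 0.9148, against 0.9375 to 0.9645 for the other 11.

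Some of the members were among the most abundant transcripts of these livers, and others ranked far lower. Per gene length (RPKM, reads per kilobase of exon in the same scaling, mean over the 12 libraries), the fibrinogen beta chain gene Fgb ranked 15 of 14443 genes at 3531 RPKM, its partner Fgg 21 at 2632, the central complement component C3 24 at 2173 and the fibrinogen alpha chain gene Fga 32 at 1763. At the low end stood C6 at 18.1 RPKM (rank 3356), F11 at 24.1 (rank 2660) and Masp1 at 27 (rank 2428). Together the 34 genes held 3.92%, 5.58% and 4.58% of assigned reads in DKO tumours, against 4.84%, 5.39% and 4.45% in DKO non-tumour liver. They held 4.48%, 2.91% and 4.58% in Atg7KO tumours, against 3.68%, 4.54% and 5.85% in Atg7KO non-tumour liver. These totals overlapped between tissues in both genotypes, and fibrinogen and C3 made up most of each. In samples of whole tissue, fewer hepatocytes and less of a transcript per hepatocyte cannot be told apart.

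**Figure D1:**
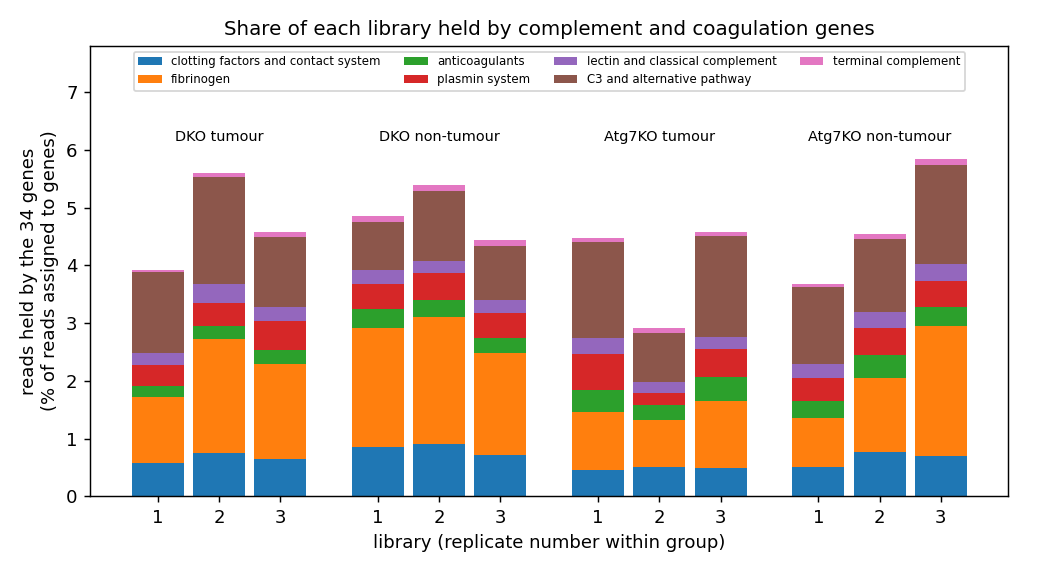
Share of assigned reads (percent, y axis) held by the 34 genes in each of the 12 libraries (x axis), stacked by role. Totals lie between 2.91% in Atg7KO tumour replicate 2 and 5.85% in Atg7KO non-tumour replicate 3, and tumour and non-tumour libraries overlap.

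The first question is how tumours differ from the non-tumour liver. In DKO tumours 27 of the 34 fold changes were below 0, with a median log2 fold change of -0.52, against 49.1% below 0 and a median of 0.01 over all genes tested. In Atg7KO tumours the count was also 27 of 34, with a median of -0.31, against 50.2% below 0 and a median of 0.00 over all genes. By median, terminal complement lay lowest in both genotypes and fibrinogen next, while C3, the factor B gene Cfb and the factor I gene Cfi stood close to 0. No member was called in either genotype by the edgeR quasi-likelihood test at an adjusted p under 0.05, and the statements below on single genes are therefore of levels and of spread.

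The counts behind this are as follows for DKO. edgeR called 0 of 34 members, against 0% of all genes. At an unadjusted p under 0.05, 8 members (23.5%) were lower, against 10.3% of all genes, and 0 were higher, against 12.2%. DESeq2 called 1 member lower (2.94%), the mannose-binding lectin gene Mbl1, against 3.9% of all genes, and 0 higher, against 4.66%, and limma voom called 0 members and 0% of all genes. In 9 members (26.5%) each tumour library was lower than any non-tumour library, against 13.8% of all genes, and in 0 members they lay above, against 13.2%. Those 9 were F2, F10, Serpinc1, Masp2, Mbl1, C6, C8a, C8b and C9, whose groups nearly met at 319 CPM. The whole-table edgeR count depended on 1 library. With DKO non-tumour replicate 3 left out, edgeR called 297 genes higher and 300 lower of 14705, and still 0 members. The median of the members was then -0.65, with 28 below 0. The DKO median was nearer 0 with other libraries left out. It was -0.39 (26 of 34 below 0) without non-tumour replicate 2 and -0.41 (27 of 34) without tumour replicate 1.

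For Atg7KO the counts were smaller. edgeR called 0 members and 0% of all genes. At an unadjusted p under 0.05, 3 members (8.82%) were lower, against 8.74% of all genes, and 0 were higher, against 8.04%. DESeq2 called 1 member lower (2.94%), C8b, against 2.43% of all genes, and 0 higher, against 1.76%, and limma voom called 0 members and 2.35% of all genes. The libraries did not overlap in 3 members that were lower (F11, F12 and Klkb1), 8.82% against 11.9% of all genes, and in 0 that were higher, against 11.6%. The shares for lower members are close to or below those of all genes, so in Atg7KO the counts are no result about the members. The median of -0.31 was -0.14 (23 of 34 below 0) with non-tumour replicate 2 left out and -0.20 (24 of 34) with tumour replicate 2 left out. It was -0.47 with tumour replicate 1 left out and -0.50 with non-tumour replicate 1 left out.

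Averaging the tumour effect over both genotypes left 29 of 34 members below 0, with a median of -0.41, against 48.8% and 0.01 over all genes. edgeR called 0 members and 0.00692% of all genes. At an unadjusted p under 0.05, 8 members (23.5%) were lower, against 10.5% of all genes, and 0 were higher, against 10.8%. These were F2, F7, F10, Klkb1, Fgg, Masp2, Mbl1 and C8b, with log2 fold changes from -1.47 for C8b to -0.52 for F10. C8a, at -1.06 with an SE of 0.54 (edgeR adjusted p = 0.277), and C8g, at -0.90 with an SE of 0.43 (edgeR adjusted p = 0.253), were not among them. DESeq2 called 3 members lower (C8b, F2 and Klkb1), 8.82% against 4.29% of all genes, and 0 higher, against 4.24%, and limma voom called 0 members and 3.61% of all genes.

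**Figure D2:**
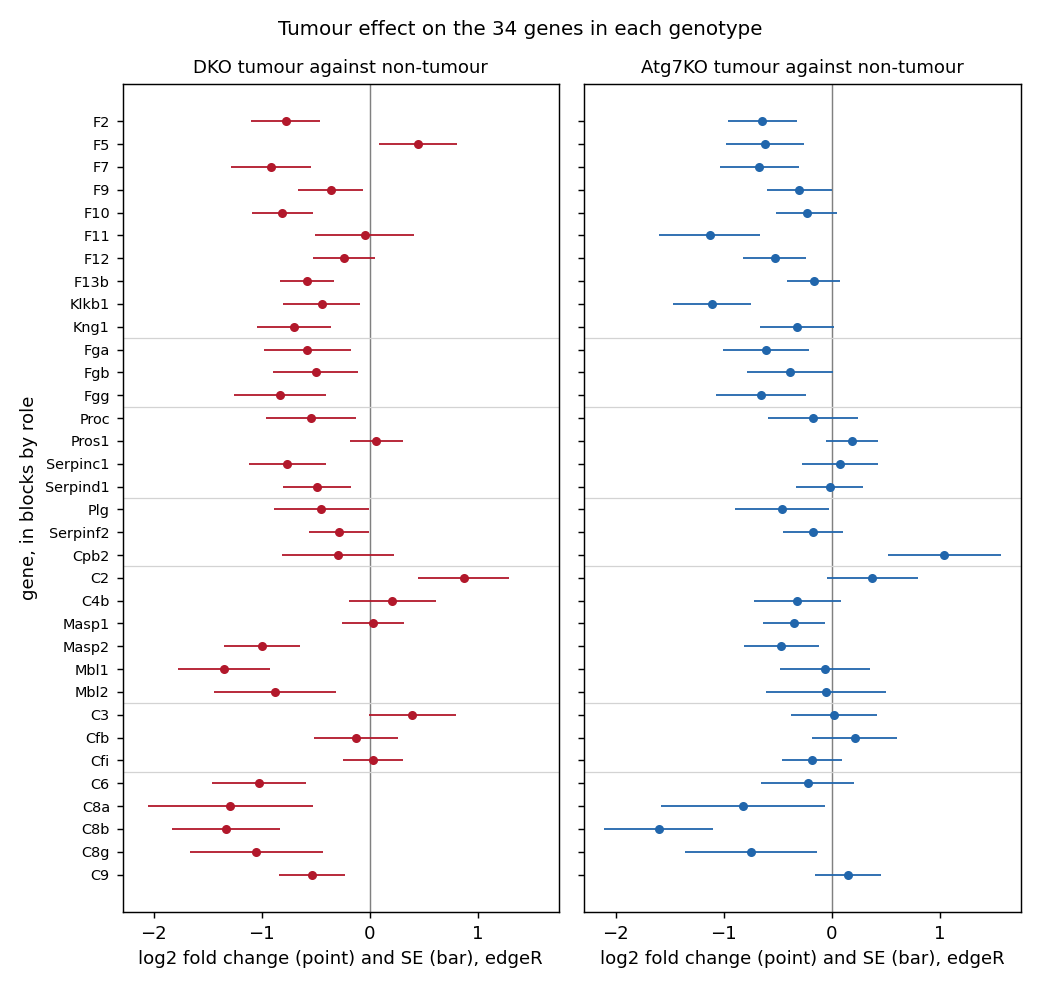
Log2 fold change of tumour over non-tumour liver (x axis, point) with its SE (bar) for each of the 34 genes (y axis, in blocks by role), in DKO (left) and Atg7KO (right), from the edgeR fit. In each genotype 27 of 34 points lie left of 0, and C8b lies at -1.33 in DKO and -1.60 in Atg7KO.

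By median log2 fold change, terminal complement stood lowest of the 7 roles in tumours of both genotypes. The membrane attack complex begins when C5b binds C6 and C7. C8 then enters the membrane as a trimer of alpha, beta and gamma chains, encoded by C8a, C8b and C8g, and C9 polymerises into the pore. Summed over C6, C8a, C8b, C8g and C9, levels reached 378 to 753 CPM in DKO tumours and 1039.7 to 1187 CPM in DKO non-tumour liver, without overlap. In Atg7KO the same sum was 563 to 755 CPM in tumours and 489.9 to 1060.2 CPM in non-tumour liver, and the groups overlapped. The anticoagulant sum stood apart in DKO too, at 1851 to 2236 CPM in tumours and 2472 to 3799 CPM in non-tumour liver. In Atg7KO the anticoagulant sums overlapped.

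C8b (NM_133882, mm10 chromosome 4, 104766317 to 104804548) encodes the beta chain and had the lowest fold change of the members over both genotypes. It stood at 55.6, 98.9 and 103 CPM in DKO tumours, against 245, 246 and 159 CPM in DKO non-tumour liver. In Atg7KO it stood at 23.2, 22.8 and 33.2 CPM in tumours, against 20.7, 109.6 and 110.5 CPM in non-tumour liver. Every DKO tumour library lay below every DKO non-tumour library, while the Atg7KO groups overlapped because non-tumour replicate 1 was as low as the tumours. The log2 fold change was -1.33 (SE 0.50) in DKO and -1.60 (SE 0.51) in Atg7KO (edgeR adjusted p = 0.159 and 0.186). Averaged over both genotypes it was -1.47 with an SE of 0.36, the lowest p of any member (edgeR adjusted p = 0.0798, and 0.00214 in DESeq2). In Atg7KO the adjusted p ran from 0.0383 in DESeq2, which called it, to 0.47 over the settings tried.

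C8a (NM_146148, mm10 chromosome 4, 104815680 to 104876398) lies 11131 bp from C8b, with both genes reading towards each other. It stood at 39.5, 164 and 161 CPM in DKO tumours, against 343, 255 and 297 CPM in DKO non-tumour liver, again without overlap. The Atg7KO values were 174, 27 and 93.6 CPM in tumours and 36, 239 and 246 CPM in non-tumour liver, and these overlapped. The log2 fold change was -1.29 with an SE of 0.76 in DKO (edgeR adjusted p = 0.33), and -0.88 without tumour replicate 1. In Atg7KO it was -0.82 with an SE of 0.76 (edgeR adjusted p = 0.616), and ran from -1.53 without tumour replicate 1 to -0.38 without tumour replicate 2.

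C8g, on chromosome 2, encodes the small gamma chain. It stood at 15.2, 91.2 and 123 CPM in DKO tumours against 157, 220.3 and 99.1 CPM in non-tumour liver, and at 138, 68.4 and 95.4 CPM in Atg7KO tumours against 122, 266 and 118 CPM in non-tumour liver. Both pairs of groups overlapped, with a log2 fold change of -1.05 and an SE of 0.61 in DKO (edgeR adjusted p = 0.326). The C8g value was -0.57 without DKO tumour replicate 1, -1.58 without DKO tumour replicate 3 and -0.66 after adding a term for gene length (an offset). The 3 chains did not keep a fixed ratio. Per gene length, the C8g level was 0.494 to 2.16 times that of C8b across the DKO tumours and 1.13 to 1.63 times across DKO non-tumour liver, but 5.21 to 10.7 times across the Atg7KO tumours and 1.94 to 10.7 times across Atg7KO non-tumour liver.

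C6, which starts the assembly, stood at 15.7, 43.2 and 46.4 CPM in DKO tumours against 86.8, 54.5 and 74 CPM in DKO non-tumour liver, without overlap (log2 fold change -1.03, SE 0.43, edgeR adjusted p = 0.191), and its fold change was -0.68 without tumour replicate 1. In Atg7KO it averaged 45.5 ± 16.9 CPM in tumours and 53.1 ± 21.8 CPM in non-tumour liver (SD, n = 3 each). C9, which forms the wall of the pore, averaged 262 ± 52.9 CPM in DKO tumours and 380.3 ± 52.9 CPM in DKO non-tumour liver. It averaged 410.2 ± 175 CPM in Atg7KO tumours and 369 ± 82.2 CPM in Atg7KO non-tumour liver, within the spread of the libraries.

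The upstream sequences of C8b and C8a are shown because these neighbours held the lowest terminal complement fold changes over both genotypes. They are the 250 bases before each RefSeq gene start (GRCm38.p6), written 5′ to 3′ in the direction of the gene, with capitals marking the letters GTTAAT, the core bound by HNF1, on either strand. C8b is read from chr4:104766067-104766316 on the plus strand and C8a from chr4:104876399-104876648 on the minus strand.
C8b: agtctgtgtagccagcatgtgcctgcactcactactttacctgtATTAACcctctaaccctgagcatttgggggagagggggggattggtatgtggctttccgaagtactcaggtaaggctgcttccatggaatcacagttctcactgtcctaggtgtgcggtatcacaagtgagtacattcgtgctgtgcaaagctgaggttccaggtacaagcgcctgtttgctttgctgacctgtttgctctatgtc
C8a: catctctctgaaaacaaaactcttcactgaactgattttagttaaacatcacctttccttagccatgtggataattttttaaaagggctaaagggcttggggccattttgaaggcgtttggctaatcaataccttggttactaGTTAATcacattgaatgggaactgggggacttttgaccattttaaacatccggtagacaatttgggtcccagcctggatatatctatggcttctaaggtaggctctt
The letters begin 206 bases before the start of C8b and 107 bases before that of C8a. Of the 26 members with a RefSeq promoter, 5 held GTTAAT in this window (C8a, C8b, F13b, Fga and Fgb), against 7.49% of 27025 genes.

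**Figure D3:**
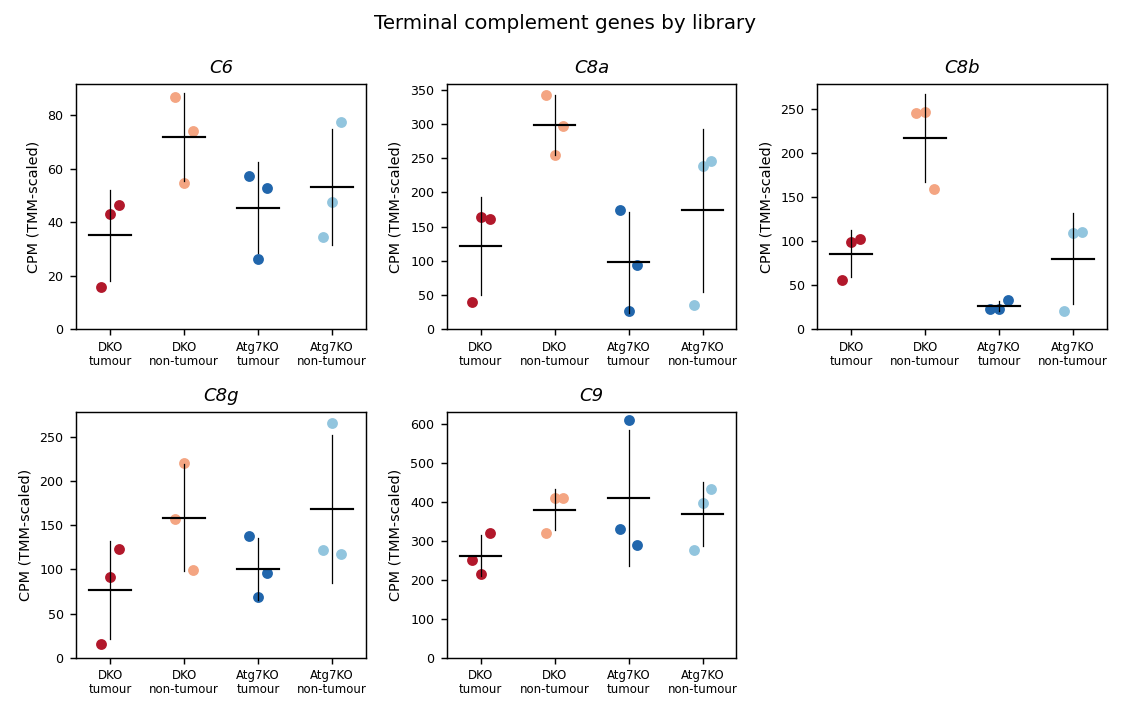
TMM-scaled CPM (y axis, from 0) of the 5 terminal complement genes in each group (x axis), with points for libraries, a horizontal bar for the mean and a vertical bar for the SD of 3 libraries. DKO tumours lie below DKO non-tumour liver for C6, C8a and C8b, and Atg7KO non-tumour replicate 1 is as low as the Atg7KO tumours for C8a and C8b.

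In the lectin pathway, Mbl1, Mbl2 and Masp2 averaged lower in DKO tumours than in DKO non-tumour liver, and Masp1 did not. Mannose-binding lectins recognise sugars on microbes and carry the proteases MASP-1 and MASP-2, which together cleave C4 and C2. Mbl1 (NM_010775, mm10 chromosome 14, 41151456 to 41158959) encodes one of these lectins. It stood at 41.7, 146 and 117 CPM in DKO tumours, against 259, 335 and 179.7 CPM in DKO non-tumour liver. In Atg7KO it stood at 153, 104 and 93.8 CPM in tumours, against 85.6, 156 and 126 CPM in non-tumour liver. Tumours lay below non-tumour liver in every DKO library, while the Atg7KO groups covered each other. The DKO log2 fold change was -1.35 with an SE of 0.42 (edgeR adjusted p = 0.13, and 0.0322 in DESeq2). Over the settings tried it ran from -1.70 to -0.83, and it was -0.83 once an offset for gene length was added.

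Fold changes of tumour over non-tumour liver followed gene length across all genes. Spearman rho was 0.495 in DKO and -0.251 in Atg7KO, across 14443 genes, which are not independent replicates. Mbl1 is short, at 923 bp against a median of 2862 bp. Whether this length trend contributes to the lower values of short members was not tested. With the offset the median of the 34 members was -0.35 in DKO, with 28 below 0, and -0.32 in Atg7KO, with 27 below 0.

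Masp2 stood at 52.5, 126 and 112 CPM in DKO tumours against 249, 186 and 144 CPM in DKO non-tumour liver, without overlap (log2 fold change -1, SE 0.35, edgeR adjusted p = 0.143). Its DKO fold change ran from -1.23 to -0.71 over the settings tried. In Atg7KO Masp2 averaged 134 ± 6.56 CPM in tumours and 185 ± 73.6 CPM in non-tumour liver (SD, n = 3 each). Of its 3217 exonic bases, 1798 overlap Tardbp on the other strand, and without a stated strand setting reads of that stretch cannot be assigned to either gene with certainty. Mbl2 stood at 46.8, 367 and 176 CPM in DKO tumours against 428, 365 and 291 CPM in DKO non-tumour liver, with a log2 fold change of -0.88 and an SE of 0.56 (edgeR adjusted p = 0.369). It was -0.41 without tumour replicate 1, -1.70 without tumour replicate 2 and -0.45 with the length offset. Its Atg7KO averages were 439 ± 191 CPM in tumours and 456 ± 98.9 CPM in non-tumour liver. Masp1 averaged 68.8 ± 5.75 CPM in DKO tumours and 67.4 ± 11.5 CPM in DKO non-tumour liver, and 70.9 ± 26 CPM in Atg7KO tumours and 90.5 ± 23.8 CPM in Atg7KO non-tumour liver.

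C2 and C4b supply the convertase shared by the lectin and classical routes. C2 stood at 518, 167 and 162 CPM in DKO tumours against 140.5, 173 and 150.0 CPM in DKO non-tumour liver. Only tumour replicate 1 was high, and the log2 fold change of 0.87 (SE 0.42, edgeR adjusted p = 0.246) was 0.09 without it. In Atg7KO C2 averaged 159 ± 67 CPM in tumours and 123 ± 5.37 CPM in non-tumour liver. C4b averaged 1694 ± 590.4 CPM in DKO tumours and 1467 ± 253 CPM in DKO non-tumour liver, and 1321 ± 679 CPM in Atg7KO tumours and 1649 ± 393 CPM in Atg7KO non-tumour liver. Its near copy C4a had 0.611 to 37.8 CPM per library, and reads that match both genes may be split or lost.

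C3, cleaved by every activation route, showed no shift that exceeded its spread. It averaged 11825 ± 3370.3 CPM in DKO tumours and 9014 ± 2997 CPM in DKO non-tumour liver, and 11988 ± 5113 CPM in Atg7KO tumours and 11832 ± 1931 CPM in Atg7KO non-tumour liver (SD, n = 3 each). Its DKO log2 fold change of 0.39 had an SE of 0.40 (edgeR adjusted p = 0.591), and was 0.05 with the length offset. Cfb, the protease of the alternative pathway, averaged 1269 ± 137 CPM in DKO tumours and 1386 ± 358 CPM in DKO non-tumour liver, and 1549 ± 872 CPM in Atg7KO tumours and 1339 ± 322 CPM in Atg7KO non-tumour liver. Cfi, whose product degrades C3b and C4b, averaged 921 ± 257 CPM in DKO tumours and 902 ± 108 CPM in DKO non-tumour liver, and 758 ± 66.7 CPM in Atg7KO tumours and 861 ± 227 CPM in Atg7KO non-tumour liver.

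**Figure D4:**
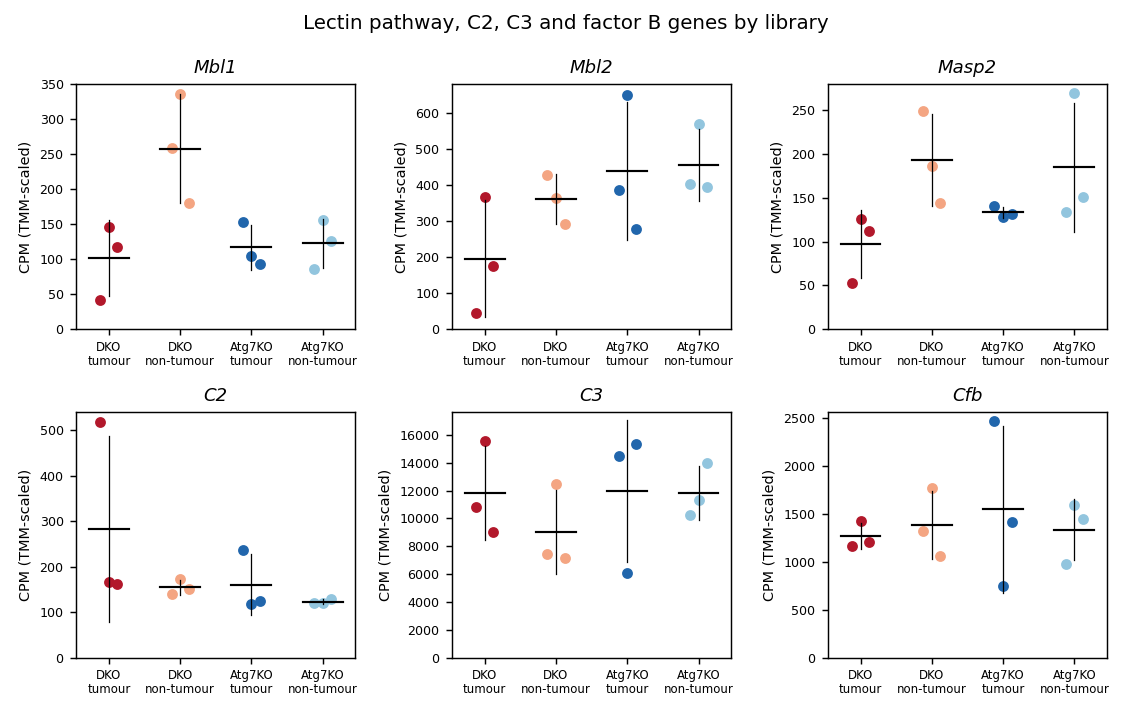
TMM-scaled CPM (y axis, from 0) of 6 complement genes by group (x axis), with points for libraries, a horizontal bar for the mean and a vertical bar for the SD of 3 libraries. Mbl1 and Masp2 are lower in each DKO tumour than in any DKO non-tumour library, DKO tumour replicate 1 is the low point for Mbl2 and the high point for C2, and C3 and Cfb overlap in all groups.

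Among clotting factors the tumour values were lower in 9 of 10 genes in DKO and 10 of 10 in Atg7KO, with medians of -0.51 and -0.58 on the log2 scale. F2 (NM_010168, mm10 chromosome 2, 91625320 to 91636457) encodes prothrombin, the precursor of thrombin. It stood at 1238, 1459 and 1302 CPM in DKO tumours, against 2694, 2606 and 1564 CPM in DKO non-tumour liver. The Atg7KO values were 1308, 893 and 1258 CPM in tumours, against 1219, 2482 and 1699 CPM in non-tumour liver. The DKO groups did not overlap (log2 fold change -0.78, SE 0.32, edgeR adjusted p = 0.184), and the Atg7KO groups did because of non-tumour replicate 1. Averaged over both genotypes the log2 fold change was -0.71 with an SE of 0.23 (edgeR adjusted p = 0.12, and 0.0245 in DESeq2).

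F10 encodes factor X, which joins both starting routes and activates prothrombin. It stood at 303, 378 and 309.5 CPM in DKO tumours, against 584, 745 and 407 CPM in DKO non-tumour liver, without overlap (log2 fold change -0.81, SE 0.28, edgeR adjusted p = 0.142). In Atg7KO it averaged 394 ± 61.9 CPM in tumours and 463 ± 122 CPM in non-tumour liver. F7, the partner of tissue factor, ends 1502 bp before F10 on chromosome 8. It averaged 49.5 ± 19.5 CPM in DKO tumours and 93.4 ± 25.8 CPM in DKO non-tumour liver, and 46.2 ± 9.69 CPM in Atg7KO tumours and 73.5 ± 31.2 CPM in Atg7KO non-tumour liver. Its log2 fold change was -0.92 with an SE of 0.37 in DKO (edgeR adjusted p = 0.179) and -0.79 with an SE of 0.26 over both genotypes (edgeR adjusted p = 0.125). The DKO value of F7 ran from -1.21 to -0.65 over the settings tried.

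In the contact system, F11 and Klkb1 lie 7419 bp apart on chromosome 8, on the same strand, and the Atg7KO groups of both stood apart. Klkb1 (NM_008455, mm10 chromosome 8, 45269451 to 45294835) encodes plasma prekallikrein, which activates factor XII and frees bradykinin from kininogen. It stood at 78.3, 118 and 90.7 CPM in DKO tumours, against 139, 146 and 105 CPM in DKO non-tumour liver. In Atg7KO it stood at 91.4, 38.4 and 83.9 CPM in tumours, against 104, 231 and 126 CPM in non-tumour liver, without overlap. The Atg7KO log2 fold change was -1.11 with an SE of 0.36 (edgeR adjusted p = 0.19), and the Klkb1 value was -0.69 without non-tumour replicate 2. Over both genotypes it was -0.78 with an SE of 0.25 (edgeR adjusted p = 0.125, and 0.0489 in DESeq2).

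F11, encoding factor XI, stood at 48.6, 72.7 and 59.6 CPM in DKO tumours, against 40.1, 91.8 and 55.5 CPM in DKO non-tumour liver. In Atg7KO it stood at 34.9, 9.33 and 44.3 CPM in tumours, against 52.4, 68.6 and 72.6 CPM in non-tumour liver. Each Atg7KO tumour was lower than any Atg7KO non-tumour library, and the DKO groups covered each other. Its Atg7KO log2 fold change of -1.13 (SE 0.47, edgeR adjusted p = 0.255) was -0.71 without tumour replicate 2. F12, the zymogen that starts contact activation, averaged 367 ± 85.9 CPM in DKO tumours and 433 ± 132 CPM in DKO non-tumour liver. The Atg7KO averages were 281 ± 19.6 CPM in tumours and 405 ± 117 CPM in non-tumour liver, without overlap.

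Kng1, the kininogen precursor of bradykinin, averaged 2975 ± 827 CPM in DKO tumours and 4847 ± 1431 CPM in DKO non-tumour liver, and 2068 ± 262 CPM in Atg7KO tumours and 2586 ± 793 CPM in Atg7KO non-tumour liver. Its paralogue Kng2 kept a level per length 5.09 to 7.85 times lower in every library, and reads shared by the pair are uncertain. F13b, the carrier subunit of the fibrin cross-linking factor XIII, averaged 148 ± 25.5 CPM in DKO tumours and 222 ± 45.9 CPM in DKO non-tumour liver (log2 fold change -0.58, SE 0.25, edgeR adjusted p = 0.191), and 184 ± 15 CPM in Atg7KO tumours and 206 ± 60.3 CPM in Atg7KO non-tumour liver. F9, the X-linked gene of the intrinsic route, averaged 203 ± 37.6 CPM in DKO tumours and 261 ± 43.3 CPM in DKO non-tumour liver, and 152 ± 56.9 CPM in Atg7KO tumours and 187 ± 46.3 CPM in Atg7KO non-tumour liver.

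F5, the cofactor with which factor X activates prothrombin, was the clotting factor gene whose tumour values lay on opposite sides in the genotypes. It averaged 572 ± 117 CPM in DKO tumours and 419.5 ± 71.7 CPM in DKO non-tumour liver, and 351 ± 127 CPM in Atg7KO tumours and 539 ± 253 CPM in Atg7KO non-tumour liver. The tumour effect was higher in DKO by 1.07 on the log2 scale with an SE of 0.51, a difference that was not called (edgeR adjusted p = 0.298). F5 is the longest member, at 7433 bp, and with the length offset that difference was 0.30.

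**Figure D5:**
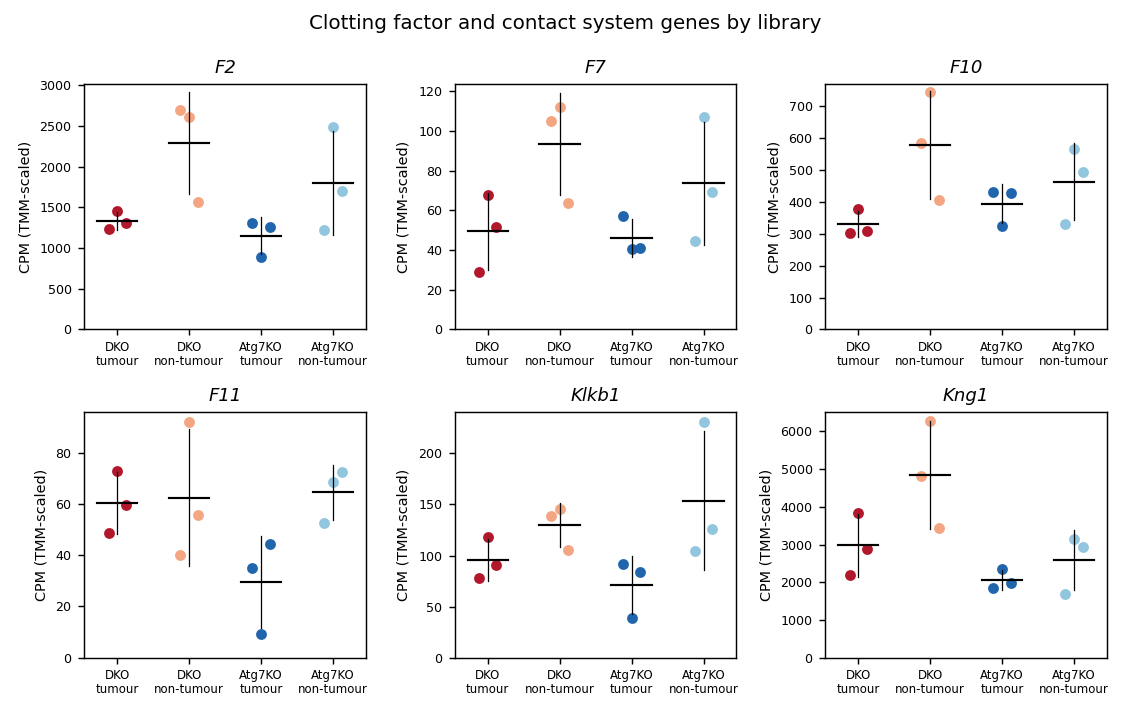
TMM-scaled CPM (y axis, from 0) of 6 clotting factor and contact system genes by group (x axis), with points for libraries, a horizontal bar for the mean and a vertical bar for the SD of 3 libraries. F2 and F10 are lower in all 3 DKO tumours than in DKO non-tumour liver, and F11 and Klkb1 are lower in all 3 Atg7KO tumours than in Atg7KO non-tumour liver.

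Fibrinogen is a hexamer of alpha, beta and gamma chains, whose genes Fgg, Fga and Fgb lie side by side on chromosome 3 with gaps of 11103 and 8687 bp. Fga stood at 4002, 7483 and 5921 CPM in DKO tumours, against 9539, 9925 and 6531 CPM in DKO non-tumour liver. In Atg7KO it stood at 3825, 2909 and 4230.1 CPM in tumours, against 2874, 5455 and 8395 CPM in non-tumour liver. The Atg7KO non-tumour libraries were themselves spread widely, and both pairs of groups overlapped.

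Fgg had the lowest fold change of the 3 chains, with 3595 ± 1200.5 CPM in DKO tumours and 6397 ± 1865 CPM in DKO non-tumour liver, and 2345 ± 524 CPM in Atg7KO tumours and 3694 ± 1778 CPM in Atg7KO non-tumour liver (SD, n = 3 each). Its log2 fold change was -0.83 with an SE of 0.42 in DKO (edgeR adjusted p = 0.262), or -0.50 with the length offset, and -0.74 with an SE of 0.30 over both genotypes (edgeR adjusted p = 0.183). Fgb averaged 5509 ± 1185 CPM in DKO tumours and 7800.1 ± 1753 CPM in DKO non-tumour liver, and 3864 ± 1173 CPM in Atg7KO tumours and 5044 ± 2401 CPM in Atg7KO non-tumour liver. The chains kept similar proportions across libraries. Per gene length, Fga was 0.395 to 0.565 times Fgb and Fgg was 0.518 to 0.891 times Fgb in all 12.

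The upstream sequences of Fga and Fgb are shown because these chains kept that ratio. They are again the 250 bases before the RefSeq gene start (GRCm38.p6), from chr3:83025903-83026152 on the plus strand and chr3:83049864-83050113 on the minus strand, with capitals marking GTTAAT or the C/EBP letters TTGCNNAA on either strand.
Fga: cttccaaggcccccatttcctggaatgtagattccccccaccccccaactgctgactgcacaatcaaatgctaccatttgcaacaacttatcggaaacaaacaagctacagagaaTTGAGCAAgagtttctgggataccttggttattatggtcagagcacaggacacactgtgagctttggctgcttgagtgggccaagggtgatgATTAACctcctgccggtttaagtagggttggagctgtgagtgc
Fgb: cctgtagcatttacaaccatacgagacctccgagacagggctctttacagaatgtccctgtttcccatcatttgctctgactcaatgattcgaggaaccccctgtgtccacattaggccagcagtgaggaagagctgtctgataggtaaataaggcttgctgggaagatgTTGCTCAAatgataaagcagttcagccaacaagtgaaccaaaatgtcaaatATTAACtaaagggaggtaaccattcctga
GTTAAT begins 43 bases before the start of Fga and 29 bases before that of Fgb, and TTGCNNAA begins 135 and 80 bases before them. For Fgb these distances are counted from the start next to the window shown. The Fgb entry of the count table starts further downstream, at chr3:83049790, so the letters lie farther from that start. TTGCNNAA was present in 7 of 26 members (C3, C9, F11, F9, Fga, Fgb and Klkb1), against 10.8% of all genes. The letters TTCNNNGAA of STAT3 were present in 6 of 26 (C8a, F9, Fga, Fgb, Masp2 and Pros1), against 8.13%. The letters AAAGTCCA of HNF4 were present in 0 of 26, against 1.19%. Fgg, the gene of the third chain, was not among the members found to hold any of these letters. Whether the letters bear on the proportions of the chains was not tested. Both strands were searched for each motif, and GTTAAT and TTGCNNAA did not overlap in the sequences shown.

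Of the genes that limit clotting, only Serpinc1 stood apart between tissues, and only in DKO. Serpinc1 (NM_080844, mm10 chromosome 1, 160978606 to 161003014) encodes antithrombin, the main plasma inhibitor of thrombin and factor X. It stood at 1233, 1473 and 1359.7 CPM in DKO tumours, against 2796, 2414 and 1693 CPM in DKO non-tumour liver. In Atg7KO it stood at 2913, 1348 and 3226 CPM in tumours, against 1800.1, 3118 and 2187 CPM in non-tumour liver. The DKO groups did not overlap (log2 fold change -0.76, SE 0.36, edgeR adjusted p = 0.229), and the Atg7KO groups did.

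Serpind1, encoding the second thrombin inhibitor heparin cofactor II, averaged 390.4 ± 98.8 CPM in DKO tumours and 548 ± 174 CPM in DKO non-tumour liver, and 545 ± 32.9 CPM in Atg7KO tumours and 553 ± 201 CPM in Atg7KO non-tumour liver. Proc, the gene of the protease precursor protein C, averaged 212 ± 15.7 CPM in DKO tumours and 309 ± 93.5 CPM in DKO non-tumour liver, and 318 ± 221 CPM in Atg7KO tumours and 358 ± 97.6 CPM in Atg7KO non-tumour liver. Its cofactor gene Pros1 stayed between 95.9 and 189 CPM in all 12 libraries.

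In the plasmin system, Plg, the plasminogen gene, averaged 2074 ± 80 CPM in DKO tumours and 2831 ± 642 CPM in DKO non-tumour liver, and 1863 ± 1116 CPM in Atg7KO tumours and 2558 ± 913 CPM in Atg7KO non-tumour liver. Serpinf2, encoding the plasmin inhibitor alpha-2-antiplasmin, averaged 806 ± 83.5 CPM in DKO tumours and 983 ± 231 CPM in DKO non-tumour liver, and 793 ± 226 CPM in Atg7KO tumours and 896 ± 145 CPM in Atg7KO non-tumour liver. Cpb2 encodes a carboxypeptidase that protects fibrin from plasmin. It stood at 687, 777 and 1636 CPM in DKO tumours, against 987, 1442 and 1382 CPM in DKO non-tumour liver, and at 2609, 558 and 2119 CPM in Atg7KO tumours, against 1093, 550.2 and 927 CPM in Atg7KO non-tumour liver. Tumour replicates 1 and 3 of Atg7KO were high and tumour replicate 2 was not. The Atg7KO log2 fold change of 1.04 had an SE of 0.52 (edgeR adjusted p = 0.34). It was 1.46 when tumour replicate 2 was left out and 0.64 when tumour replicate 1 was.

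The second question is whether loss of Hmgb1 shifts these genes within a tissue. In tumours 15 of 34 members were below 0 in DKO against Atg7KO, with a median log2 fold change of 0.06, and in non-tumour liver 11 of 34 were below 0, with a median of 0.12. Over all genes 49.7% and 53.9% were below 0. Neither median kept its sign with each library left out. In tumours it was -0.05 (17 of 34 below 0) without Atg7KO tumour replicate 2, -0.03 (18 of 34) without DKO tumour replicate 2 and 0.26 (12 of 34) without Atg7KO tumour replicate 1. In non-tumour liver it was -0.03 (18 of 34) without Atg7KO non-tumour replicate 1 and 0.34 (6 of 34) without Atg7KO non-tumour replicate 2. Every genotype difference here runs together with the sex chromosome transcripts given above, so genotype and sex cannot be told apart.

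In tumours edgeR called 0 members and 0.0485% of all genes. At an unadjusted p under 0.05, 2 members were higher in DKO (5.88%, against 8.34% of all genes) and 1 was lower (2.94%, against 8.27%). DESeq2 called 1 member higher (2.94%), C8b, against 1.82% of all genes, and 0 lower, against 1.88%, and limma voom called 0 members and 0.256% of all genes. The libraries stood apart in 3 members that were higher in DKO (F5, F11 and C8b), 8.82% against 9.95% of all genes, and in 2 that were lower (Serpind1 and Masp2), 5.88% against 10.3%. In non-tumour liver edgeR called 0 members and 0.0554% of all genes. At an unadjusted p under 0.05, 3 members were higher in DKO (8.82%, against 7.37%) and 0 were lower (against 7.69%). DESeq2 called 0 members in either direction, against 0.609% of all genes higher and 0.714% lower, and limma voom 0 members and 3.9%. The libraries stood apart in 5 members that were higher in DKO (Kng1, C2, Mbl1, C8a and C8b), 14.7% against 11.6% of all genes, and in 0 that were lower, against 12.2%.

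C8b, with the values given above, was higher in DKO in both tissues, without overlap. Its log2 fold change was 1.70 with an SE of 0.51 in tumours (edgeR adjusted p = 0.172, and 0.0264 in DESeq2) and 1.43 with an SE of 0.50 in non-tumour liver (edgeR adjusted p = 0.255, and 0.101 in DESeq2). Over the settings tried it ran from 1.56 to 1.94 in tumours and from 0.98 to 1.73 in non-tumour liver. Mbl1 in non-tumour liver was higher in DKO by 1.07 with an SE of 0.42 (edgeR adjusted p = 0.287), or by 0.58 with the length offset, and Kng1 by 0.91 with an SE of 0.34 (edgeR adjusted p = 0.277). Across all genes fold changes of DKO over Atg7KO in non-tumour liver followed gene length with a Spearman rho of -0.474. In tumours Serpinc1 was lower in DKO, at a log2 fold change of -0.88 (SE 0.36), and F11 was higher, at 1.03 (SE 0.46, edgeR adjusted p = 0.257 and 0.294). The F11 difference was 0.62 without Atg7KO tumour replicate 2. Mbl2 differed by -1.16 with an SE of 0.57 (edgeR adjusted p = 0.324), from -1.98 without DKO tumour replicate 2 to -0.69 without DKO tumour replicate 1. C2 differed by 0.82 with an SE of 0.42 (edgeR adjusted p = 0.342), or by 0.05 without DKO tumour replicate 1.

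A term for the difference between the tumour effects of the 2 genotypes was tested as well. edgeR called 0 members and 0% of all genes, and at an unadjusted p under 0.05 there were 0 members higher, against 9.43% of all genes, and 0 lower, against 8.45%. DESeq2 called 0 members in either direction, against 1.84% of all genes higher and 2.01% lower, and limma voom 0 members and 0%. The members that looked unlike between genotypes had differences of -1.34 with an SE of 0.73 for Cpb2, -1.28 with an SE of 0.59 for Mbl1 and 1.08 with an SE of 0.65 for F11 (edgeR adjusted p = 0.365, 0.282 and 0.412). These differences followed gene length across all genes with a Spearman rho of 0.574. With the length offset the difference was -0.91 for Cpb2 and -0.49 for Mbl1, and with the replicate block added it was -0.76 for Cpb2 and -0.67 for Mbl1. For F11 it was 0.66 without Atg7KO tumour replicate 2.

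Of 67 further genes of these cascades, 63 passed the filter and edgeR called 0 in each of the 6 comparisons. In DKO tumours 39 of 63 were below 0. At an unadjusted p under 0.05, 6 were higher (9.52%, against 12.2% of all genes) and 8 lower (12.7%, against 10.3%), while DESeq2 called 2 higher (3.45%, against 4.66%) and 0 lower. In Atg7KO tumours 45 of 63 were below 0, with 4 higher (6.35%, against 8.04%) and 6 lower (9.52%, against 8.74%), while DESeq2 called 0 higher and 2 lower (3.23%, against 2.43%). These shares lie near or below those of all genes, so the counts are no result about these genes. C7, the terminal component between C6 and C8, averaged 3.86 ± 1.12 CPM in DKO tumours and 6.7 ± 3.77 CPM in DKO non-tumour liver, and 0.93 ± 0.74 CPM in Atg7KO tumours and 10.5 ± 7.31 CPM in Atg7KO non-tumour liver. Its Atg7KO log2 fold change was -3.49 with an SE of 0.75 (edgeR adjusted p = 0.112, and 0.000106 in DESeq2). Plaur, the receptor that holds urokinase at the cell surface, averaged 28.5 ± 22.9 CPM in DKO tumours and 8.3 ± 2.45 CPM in DKO non-tumour liver (log2 fold change 1.78, SE 0.52, edgeR adjusted p = 0.124, and 0.0183 in DESeq2). Thbd, thrombomodulin of the vessel wall, averaged 17.9 ± 6.65 CPM in DKO tumours and 7.68 ± 1.12 CPM in Atg7KO tumours (log2 fold change 1.22, SE 0.30, edgeR adjusted p = 0.14, and 0.0128 in DESeq2).

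Fold changes below 0 were also common in other lists of hepatocyte genes. Of 23 further genes of secreted hepatocyte proteins, 21 were below 0 in DKO tumours with a median of -0.78, and 19 in Atg7KO tumours with a median of -0.24. At an unadjusted p under 0.05, 9 of these secreted genes were lower in DKO (39.1%, against 10.3% of all genes and 23.5% of members). At that threshold 1 was higher (4.35%, against 12.2%). DESeq2 called 5 lower in DKO (21.7%, against 3.9% of all genes and 2.94% of members) and 0 higher (against 4.66%). Of 21 acute phase genes, which respond to inflammatory cytokines, 15 were below 0 in each genotype, with medians of -0.80 in DKO and -0.29 in Atg7KO. At an unadjusted p under 0.05, 0 of these acute phase genes were lower in DKO, against 10.3% of all genes. Of 17 liver transcription factor genes, 8 were below 0 in DKO tumours and 16 in Atg7KO tumours, with medians of 0.12 and -0.31. By the same unadjusted threshold 2 of these 17 (11.8%) were lower in DKO. No test between these lists and the 34 members was made.

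Summed markers of other cells differed in some of the same comparisons. The 8 macrophage markers summed to 876 to 1456 CPM in DKO tumours and 1696 to 2125 CPM in DKO non-tumour liver, without overlap. In Atg7KO these sums overlapped, at 689 to 1911 CPM in tumours and 1246 to 1578 CPM in non-tumour liver. The 7 stellate and fibroblast markers summed to 281 to 349 CPM in Atg7KO tumours and 492 to 966 CPM in Atg7KO non-tumour liver, without overlap. In DKO the stellate and fibroblast sums overlapped, at 366 to 739 CPM in tumours and 415 to 699.8 CPM in non-tumour liver. In Atg7KO tumours 4 of the 6 duct cell markers were below 0. Their median log2 fold change was -2.05 and the highest was 1.57. At an unadjusted p under 0.05, 4 were lower (66.7%, against 8.74% of all genes) and 0 higher (against 8.04%). DESeq2 called 2 lower (33.3%, against 2.43%). In DKO tumours the duct cell markers had a median of -0.01, with 3 of 6 below 0. Their sum overlapped in both genotypes, at 420.2 to 1063 CPM in DKO tumours and 337 to 1162 CPM in DKO non-tumour liver, and at 436 to 6466 CPM in Atg7KO tumours and 446 to 1177 CPM in Atg7KO non-tumour liver. All 5 neutrophil markers were below 0 in both genotypes, with medians of -1.47 in DKO and -1.14 in Atg7KO. At an edgeR unadjusted p under 0.05, 0 of them were lower in either genotype. Their sums overlapped, at 8.79 to 75.9 CPM in DKO tumours and 39.1 to 344 CPM in DKO non-tumour liver. In Atg7KO they were 9.08 to 108 CPM in tumours and 16.2 to 281 CPM in non-tumour liver, and overlapped too. The 5 B and plasma cell markers were also all below 0, with medians of -1.04 in DKO and -0.69 in Atg7KO, and their sums ran from 45.3 to 55 CPM in DKO tumours and 51.9 to 153 CPM in DKO non-tumour liver. Medians of the endothelial, T and NK cell, platelet and red cell markers lay between -0.57 and 0.43 in both genotypes. The 4 T and NK cell markers tested were all below 0 in both genotypes as well. None of the markers of macrophages, stellate cells, duct cells, neutrophils and B cells was at 0 in all libraries. The 7 hepatocyte markers summed to 52340.3 to 72433 CPM in DKO tumours and 56208 to 92848 CPM in DKO non-tumour liver, and to 26383 to 76351 CPM in Atg7KO tumours and 49683 to 108572 CPM in Atg7KO non-tumour liver, and both pairs overlapped. The part of these cells in the values of the members was not tested.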

How the data were processed

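The data are RNA sequencing of 12 liver samples in 4 groups of 3. The authors deposited a table of raw counts for each RefSeq gene, together with exon length and position on mm10. Tools named in the submitters' processing notes are bcl2fastq, STAR 2.5.3a, Subread 1.5.3 with featureCounts, and edgeR 3.20.8; the notes give no roles. The strand setting, the annotation release and the kit are not stated there. Depth per library is given in the report, and counting error is small at these counts.

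The low-count filter was filterByExpr (10 as minimum count, 15 as minimum total). After TMM scaling, edgeR 4.0.16 in R 4.3.3 fitted all 12 libraries together, 1 term for each group, and the quasi-likelihood F test (robust, legacy deviances, two-sided) was adjusted by Benjamini-Hochberg over the 14443 genes of each comparison. SE is the absolute log2 fold change divided by the square root of F. Alternatives were DESeq2 1.42.0, limma 3.58.1 (voom with quality weights), RLE factors, no filter, a gene length offset (loess trend of span 0.5), a replicate block, the compared groups alone and each library left out. Shares of DESeq2 calls are over edgeR-tested genes with a DESeq2 adjusted p. An exact permutation test of 3 against 3 cannot go below 0.1 and was not run. The fit was tested on simulated data.

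Groups and replicate numbers come from the sample titles. The members, the gene lists and the tests were chosen with earlier results of these data known. All members are named. Fold changes of members are printed mainly where the unadjusted p was under 0.05, where they were at least 0.8 (1 for the difference between genotypes), or where they were the largest of a role. Further cascade genes were named from the 3 with the lowest p in a comparison. Figures were drawn with matplotlib 3.10.9.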

Additional observations from a re-analysis of the deposited data

How the results depend on the processing

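Of 872 recomputed fold changes over 45 values, 862 kept their direction and stayed uncalled, 7 kept their direction and were called, and 3 reversed. The count of members called lower, 0 by edgeR, was 1 in DESeq2 in DKO tumours, 1 in DESeq2 in Atg7KO tumours and 3 in DESeq2 over both genotypes, and the count higher in DKO against Atg7KO tumours was 1 in DESeq2; in these cases the cause was not tested. Leaving out 1 library gave 0 to 1 members lower over both genotypes: without Atg7KO non-tumour replicate 1, C8b was called (log2 fold change -1.70, edgeR adjusted p = 0.0385). The Atg7KO tumour fold change of Pros1, 0.19, reversed to -0.0669 in limma voom and ranged from -0.0456 (without Atg7KO tumour replicate 2) to 0.329 over the libraries left out. That of Cfb, 0.21, ranged from -0.303 (without Atg7KO tumour replicate 1) to 0.537. As a share of TMM-scaled library size, the members held 5.55% in DKO non-tumour liver, against 4.89% of assigned reads.

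In the labels, tumour and non-tumour samples share only a number. The correlation of same-numbered deviations across genes ran from 0.016 to 0.332, above 0 in every pair but not over 0.1 in every pair. Between different numbers it ran from -0.246 to 0.161, and Atg7KO tumour 2 correlated best with non-tumour 1 (0.114). The most similar libraries were DKO tumour replicate 3 and DKO non-tumour replicate 3 (Spearman 0.9858). These values do not settle whether same-numbered samples came from the same animal. With the replicate block 0 members were called in DKO, 0 in Atg7KO and 0 over both genotypes, and the whole-table count over both genotypes was 10 higher and 14 lower, against 1 called in all without the block. Genotype comparisons within a tissue cannot be fitted with that block. The members hold 265 reads or more in each library, so depth limits none of them.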
